A study of Mus musculus with 24 samples.

Results

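Liver sinusoidal endothelial cells (LSECs) that had lost *Chd4*, *Brg1* or both were compared gene by gene to measure how far the effects of the 2 losses added up. The effect of *Chd4* loss in LSECs that also lacked *Brg1* (*Brg1/Chd4-ECdko* minus *Brg1-ECko*) was set against its effect in LSECs with *Brg1* (*Chd4-ECko* minus control), and the difference is called the interaction here. The same number results when the effect of *Brg1* loss is compared between LSECs without and with *Chd4*. On a log2 scale the interaction is 0 when the double mutant has the level that both single mutants predict together (additivity). It is below 0 when the double mutant has less transcript than that, and above 0 when it has more. The contrast used the 12 LSEC libraries among the 24 libraries of the series and covered 13444 of the 25361 genes in the table, those that reached 1 TPM (a length-scaled share of all transcripts) in at least 3 LSEC libraries.

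All LSECs came from mouse livers at embryonic day 12.5, with 3 libraries for each of 4 genotypes and 1 embryo per library. Controls were littermates without Cre. Mutants carried VE-Cadherin-Cre together with 2 floxed alleles of *Chd4* (*Chd4-ECko*), of *Brg1* (*Brg1-ECko*) or of both genes (*Brg1/Chd4-ECdko*, the double mutant). By the cross in the methods, the single mutants also had 1 floxed copy of the other gene, on a mixed genetic background. Each mutant group therefore carried Cre and at least 1 recombinable copy of each gene, whereas controls carried no Cre, and the part of Cre or of a single lost copy in the interaction cannot be told apart from that of the full deletions. VE-Cadherin-Cre is active in endothelial cells and in some blood cells that descend from them. LSECs were enriched with magnetic beads against CD146, an adhesion molecule of endothelial cells, after digestion in the presence of transcription inhibitors. The labels give batch 1 for every library.

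The endothelial label held against its markers. *Cdh5*, which encodes VE-cadherin, measured 194 to 368 TPM in LSEC libraries and 3.33 to 13.4 TPM in the non-EC libraries. *Stab2*, a scavenger receptor of sinusoidal endothelium, measured 63.9 to 146 TPM against 0.119 to 1.19 TPM. The libraries were not pure. The summed TPM of 17 mesenchymal markers was 1564 to 2536 in LSECs against 65.4 to 231 in non-EC cells, so that mesenchymal RNA was enriched together with endothelial RNA. In 1 library the summed TPM of 20 hepatoblast markers stood apart, at 34498 in *Brg1-ECko* replicate 1 and between 4351 and 10022 in the other 11 LSEC libraries. *Eif2s3y*, a Y-linked gene, was above 19 TPM in 7 LSEC libraries (all 3 controls, *Chd4-ECko* replicates 1 and 2, *Brg1-ECko* replicate 3 and *Brg1/Chd4-ECdko* replicate 1) and below 2 TPM in the other 5, so that embryo sex was not balanced over the genotypes. TPM are scaled to the same total in every library and hold no depth, so that no counting error could be given. In bulk RNA of this kind, fewer cells of a type and less RNA per cell cannot be told apart.

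CHD4 is the ATP-dependent chromatin remodeler of the NuRD complex, which also contains histone deacetylases and mostly keeps genes silent. BRG1, encoded by *Smarca4*, is a motor subunit of SWI/SNF (BAF) complexes, which open chromatin and in several settings act against repressive complexes at the same genes. A remodeler pair of this kind can act on separate genes or on the same genes. At the same gene the losses can add up on a log2 scale, or 1 loss can hide the effect of the other. Additivity therefore does not tell shared from separate target genes. The embryonic liver is the main site of blood formation at this age, and its sinusoidal endothelium lies next to erythroid cells, macrophages and hepatoblasts.

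The targeted genes were read first. *Chd4* measured 285, 255 and 246 TPM in controls, 223, 168 and 252 TPM in *Chd4-ECko*, 351, 225 and 272 TPM in *Brg1-ECko*, and the double mutant had 242, 250 and 256 TPM. *Smarca4* measured 161, 144 and 134 TPM in controls, 141, 99.9 and 140 TPM in *Chd4-ECko*, 157, 111 and 127 TPM in *Brg1-ECko*, and the double mutant had 130, 117 and 151 TPM. The libraries of controls overlapped those of all 3 mutant groups for both genes. A transcript that lacks the floxed exons is still counted in the TPM of the whole gene, so that these values do not check the deletion. Their interactions were 0.15 for *Chd4* and 0.24 for *Smarca4*.

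No gene departed from additivity past the test. Of the 13444 genes, 0% (0 genes) were called at an adjusted p under 0.05 with a log2 value above 1 in size, the thresholds that the study set for differentially expressed genes (DEGs), and the smallest adjusted p was 0.67 (limma on log2(TPM + 1), Benjamini-Hochberg adjustment). An unadjusted p under 0.05 was reached by 560 genes, or 4.17%, where 672.2 would be expected with no interaction anywhere. They were split evenly, with 278 genes (2.07%) below additivity and 282 (2.1%) above it. Over all genes the interaction had a median of 0.05, and 41.8% of the estimates were below 0.

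The count of 0 is bounded by the precision of 3 libraries per genotype. The interaction combines the error of 4 group means, and its median standard error (SE) was 0.26 on the log2 scale. The 95% confidence interval reached 0.56 to either side at the median gene. It lay wholly within 1 log2 unit of additivity for 10083 genes (75%). For those genes a departure of 1 unit or more on the log2(TPM + 1) scale was outside the interval. The scale understates changes of genes with low TPM, for which a 2-fold departure in TPM can still lie inside the interval. At the median SE, a single gene would have needed a log2 value of 1.91 to pass the adjustment over all genes. The values that follow are therefore a description of the genes that ranked first, not of genes that passed a test, and adjusted p-values are limma's throughout.

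For all 12 annotated genes that ranked first below additivity, the *Chd4-ECko* libraries were above every control library. Over all genes this held for 8.7%, but these genes were chosen on a contrast that contains those libraries, and nothing is read from the count. For 9 of the 12, the *Brg1-ECko* libraries also lay above every control (10.9% of all genes). *Thy1* (chr9:43954332-43959880, GRCm39), a surface glycoprotein of T cells, neurons and fibroblasts, had the smallest p. It measured 2.82, 3.41 and 2.96 TPM in controls, 13.1, 13.6 and 12.4 TPM in *Chd4-ECko*, 1.44, 2.03 and 3.7 TPM in *Brg1-ECko*, and the double mutant had 2.74, 2.9 and 3.03 TPM. The *Chd4-ECko* libraries stood alone, and the double mutant lay at the level of the controls. The log2 effect of *Chd4* loss on *Thy1* was 1.79 with *Brg1* present and 0.25 with *Brg1* lost, an interaction of -1.54 (SE 0.30, 95% interval -2.18 to -0.90, adjusted p = 0.67).

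*Nefh* (chr11:4888740-4898130), the heavy neurofilament chain of axons, showed a smaller effect of *Chd4* loss without *Brg1* but not its absence. Its level was 1.15, 1.41 and 1.13 TPM in controls, 13.8, 20.2 and 14 TPM in *Chd4-ECko*, 1.45, 2.16 and 1.95 TPM in *Brg1-ECko*, and the double mutant had 7.75, 9.95 and 6.66 TPM. The double mutant lay between the single mutants with no overlap on either side. The effect of *Chd4* loss was 2.91 with *Brg1* and 1.67 without it on the log2 scale, and the interaction was -1.24 (SE 0.28, adjusted p = 0.765).

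*Car1*, the carbonic anhydrase of red cells, followed the same order. Controls had 1.18, 1.15 and 0.34 TPM, *Chd4-ECko* LSECs 20.2, 58.8 and 18.1 TPM, *Brg1-ECko* LSECs 2.14, 1.91 and 0.136 TPM and *Brg1/Chd4-ECdko* LSECs 4.33, 5.57 and 3.01 TPM. The effect of *Chd4* loss was 3.97 with *Brg1* and 1.25 without it, and the interaction was -2.72 on the log2 scale (SE 0.62). *Prl3b1*, a placental prolactin family member, was at or below 0.502 TPM in the 9 libraries outside *Chd4-ECko*, where it measured 3.48, 3.95 and 2.3 TPM, with an interaction of -1.68 (SE 0.34). It entered the test through those 3 libraries alone, and with a pseudocount of 0.1 TPM its interaction was -3.31 with an SE of 1.23 (adjusted p = 0.998).

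Several of the 12 genes are known from leukocytes. *Itgal* (chr7:126895432-126934320), the alpha L chain of LFA-1, the leukocyte integrin that binds ICAM1, measured 12.1, 10.2 and 13.7 TPM in controls, 27.9, 36.7 and 44.4 TPM in *Chd4-ECko*, 24.9, 23 and 26.9 TPM in *Brg1-ECko*, and the double mutant had 37.5, 21.9 and 32 TPM. All mutant libraries were above all controls, and the double mutant overlapped both single mutants. On the log2 scale the single losses gave 1.51 and 1.00, which would add to 2.51, while the double mutant was 1.25 above controls, an interaction of -1.26 (SE 0.29). *Msr1*, the macrophage scavenger receptor, had the same course: 16.6, 12.2 and 20 TPM in controls, 37.5, 70.6 and 78.1 TPM in *Chd4-ECko*, 32.7, 35.1 and 46.9 TPM in *Brg1-ECko*, and the double mutant had 61.2, 45.7 and 41.9 TPM, with an interaction of -1.46 (SE 0.36). *Fcrls* (chr3:87156616-87181827), an Fc receptor-like protein of microglia and other macrophages, reached 8.99, 22 and 29.8 TPM in *Chd4-ECko* and 8.75, 11.1 and 7.98 TPM in *Brg1-ECko* LSECs. In controls it measured 3.01, 5.1 and 5.03 TPM and in *Brg1/Chd4-ECdko* LSECs 7.16, 1.6 and 5.37 TPM, and its interaction was -2.85 (SE 0.59).

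The rest of the 12 were *H2-M3*, a class Ib antigen-presenting molecule, *Milr1*, an inhibitory receptor of mast cells, *Snx20*, a sorting nexin of leukocytes, *Emilin2*, an extracellular matrix glycoprotein, and *B4galnt1*, an enzyme of ganglioside synthesis. Their interactions lay between -1.29 and -0.97 on the log2 scale. The *Brg1/Chd4-ECdko* libraries overlapped the controls for 5 of the 12 genes and lay above them for 7, and they lay below all *Chd4-ECko* libraries for 7 genes and overlapped them for 5. The choice on the interaction favours low double-mutant values. Shares over all genes were not counted for these, and nothing is read from the counts.

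**Figure D1:**
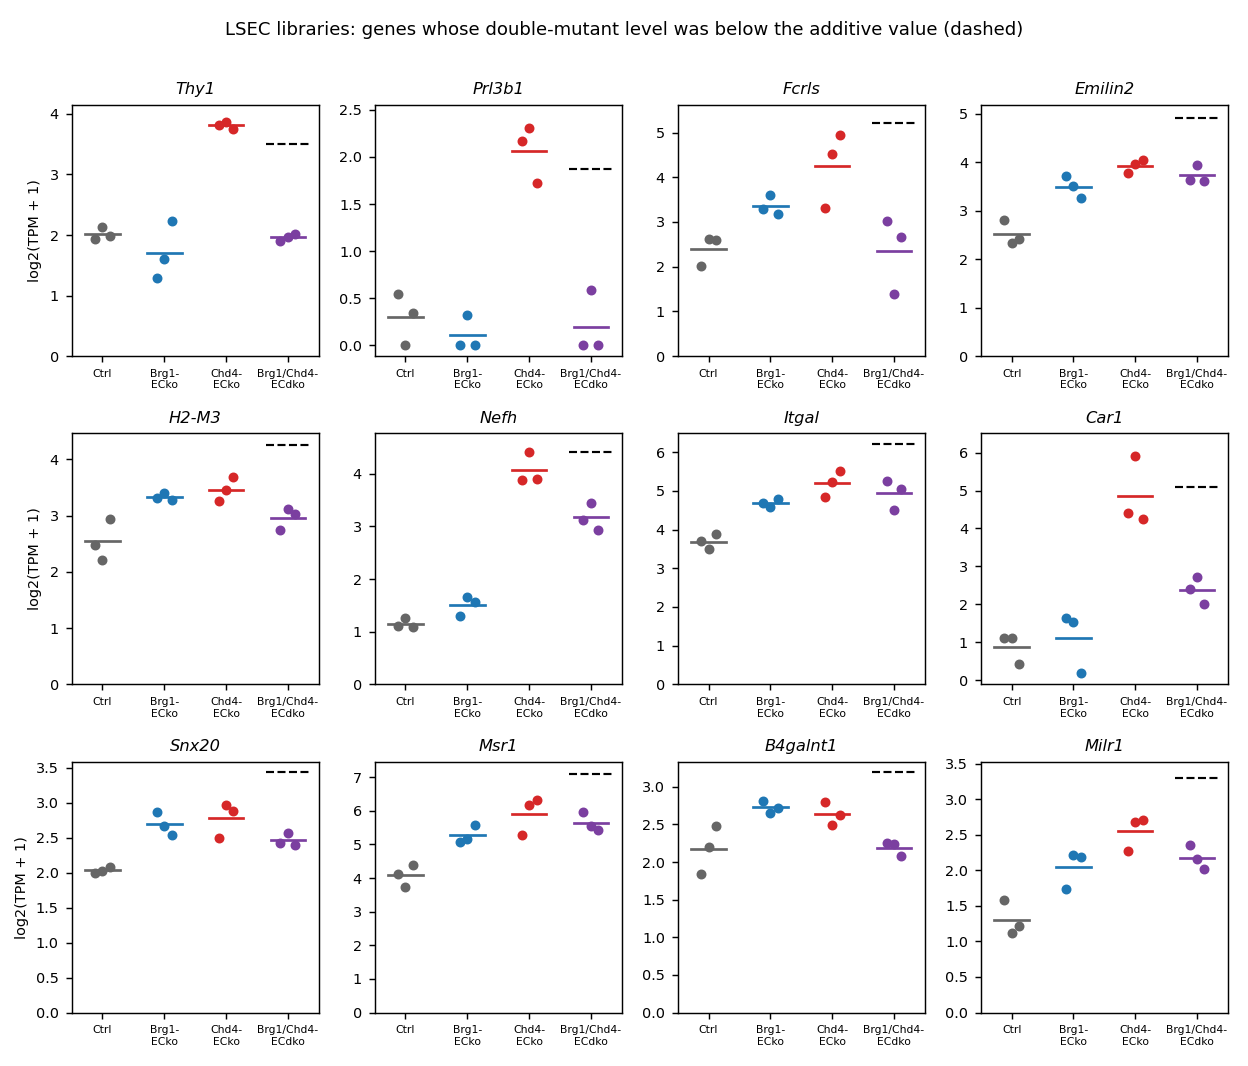
TPM of the genes that ranked first below additivity in each of the 12 LSEC libraries (points, log2(TPM + 1) axis) by genotype, with group means as bars. The dashed line marks the level that the single mutants predict for the double mutant, and the double-mutant points of *Thy1*, at 2.74 to 3.03 TPM, lie near the control points.

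The 12 genes above additivity were less alike. *Gja4* (chr4:127205214-127207851), which encodes connexin 37, a gap junction protein of arterial endothelium, measured 18.5, 25 and 20.2 TPM in controls, 6.9, 7.77 and 9.22 TPM in *Chd4-ECko*, 10.9, 16.7 and 16.9 TPM in *Brg1-ECko*, and the double mutant had 11.3, 13.1 and 16.8 TPM. All mutant libraries were below all controls, and the double-mutant libraries lay above those of *Chd4-ECko* and among those of *Brg1-ECko*. The single losses gave log2 values of -1.31 and -0.50, which would add to -1.81, while the double mutant was at -0.60, an interaction of 1.21 (SE 0.28, adjusted p = 0.834).

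*Rgs4* (chr1:169569046-169575218), a regulator that switches off G protein signals, differed in the other way. It measured 5.51, 4.62 and 6.26 TPM in controls, 7.14, 8.13 and 12.5 TPM in *Chd4-ECko*, 2.73, 4.77 and 5.93 TPM in *Brg1-ECko*, and the double mutant had 13.8, 23.8 and 27 TPM. The double mutant was the highest of the 4 groups without overlap. The effect of *Chd4* loss was 0.64 with *Brg1* and 2.03 without it, and the interaction was 1.40 (SE 0.39). *Tulp1* (chr17:28570489-28584196), a tubby family protein of photoreceptors, ranked first, with 4.33, 2.92 and 3.61 TPM in controls, 2.9, 2.98 and 2.32 TPM in *Chd4-ECko*, 1.6, 2.5 and 2.45 TPM in *Brg1-ECko*, and the double mutant had 4.64, 6.46 and 5.53 TPM (interaction 1.34, SE 0.27). Only its double-mutant libraries were all above the controls.

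*Ppp1r3b*, which targets protein phosphatase 1 to glycogen, had the double mutant above controls as well, with 9.22, 11.8 and 10.5 TPM against 8.71, 7.28 and 7.13 TPM, while *Chd4-ECko* LSECs had 6.11, 5.79 and 5.94 TPM and *Brg1-ECko* LSECs 5.64, 6.67 and 7.82 TPM (interaction 0.90, SE 0.23). Over the 12 genes, the *Chd4-ECko* libraries were all below the controls for 6 genes (3.65% of all genes), the *Brg1-ECko* libraries for 6 (3.71%), and both for 3. The choice on the interaction favours this, and nothing is read from the counts. The double-mutant libraries were above every *Chd4-ECko* library for 11 of the 12, which the same choice favours. The share over all genes was not counted for this, and nothing is read from it. The rest of the 12 genes were *Rprm*, a p53-induced arrest factor (1.46), *Stra6*, the receptor for retinol-binding protein (1.13), *Zfp503* (0.86) and *Zfp708* (1.90), zinc finger proteins, *Gstm2*, a glutathione transferase (0.85), *Xlr3b* (2.02), *H2-T10* (3.25) and *Hmga1b* (6.04). With a pseudocount of 0.1 TPM, *Zfp708* had 3.45 and *H2-T10* 5.85.

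*Hmga1b* is uncertain. It is a near copy of *Hmga1*, so that the counting could split its reads, and its replicates disagreed within a genotype: 40.5, 1.77 and 33 TPM in controls, 1.79, 0.647 and 0.419 TPM in *Chd4-ECko*, 3.55, 22.2 and 1.25 TPM in *Brg1-ECko*, and the double mutant had 42.2, 53.5 and 46.4 TPM. It passed the test when control replicate 2 was left out (7.29, adjusted p = 0.0172). For *Hmga1b* and *H2-T10* the additive value lies below 0 TPM on this scale, which no library can reach. Members of the H2 and Xlr3 families also have close copies, and their values are uncertain for the same reason. The replicates of *H2-T10* disagreed as well, with 6.93, 0.77 and 5.25 TPM in controls and 0, 4.91 and 0.399 TPM in *Brg1-ECko*. *Xlr3b* lies on the X chromosome, and embryo sex was not balanced over the genotypes. All 24 genes kept the sign of the interaction under every alternative in which they could be fitted, and none was past the test in the other alternatives.

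**Figure D2:**
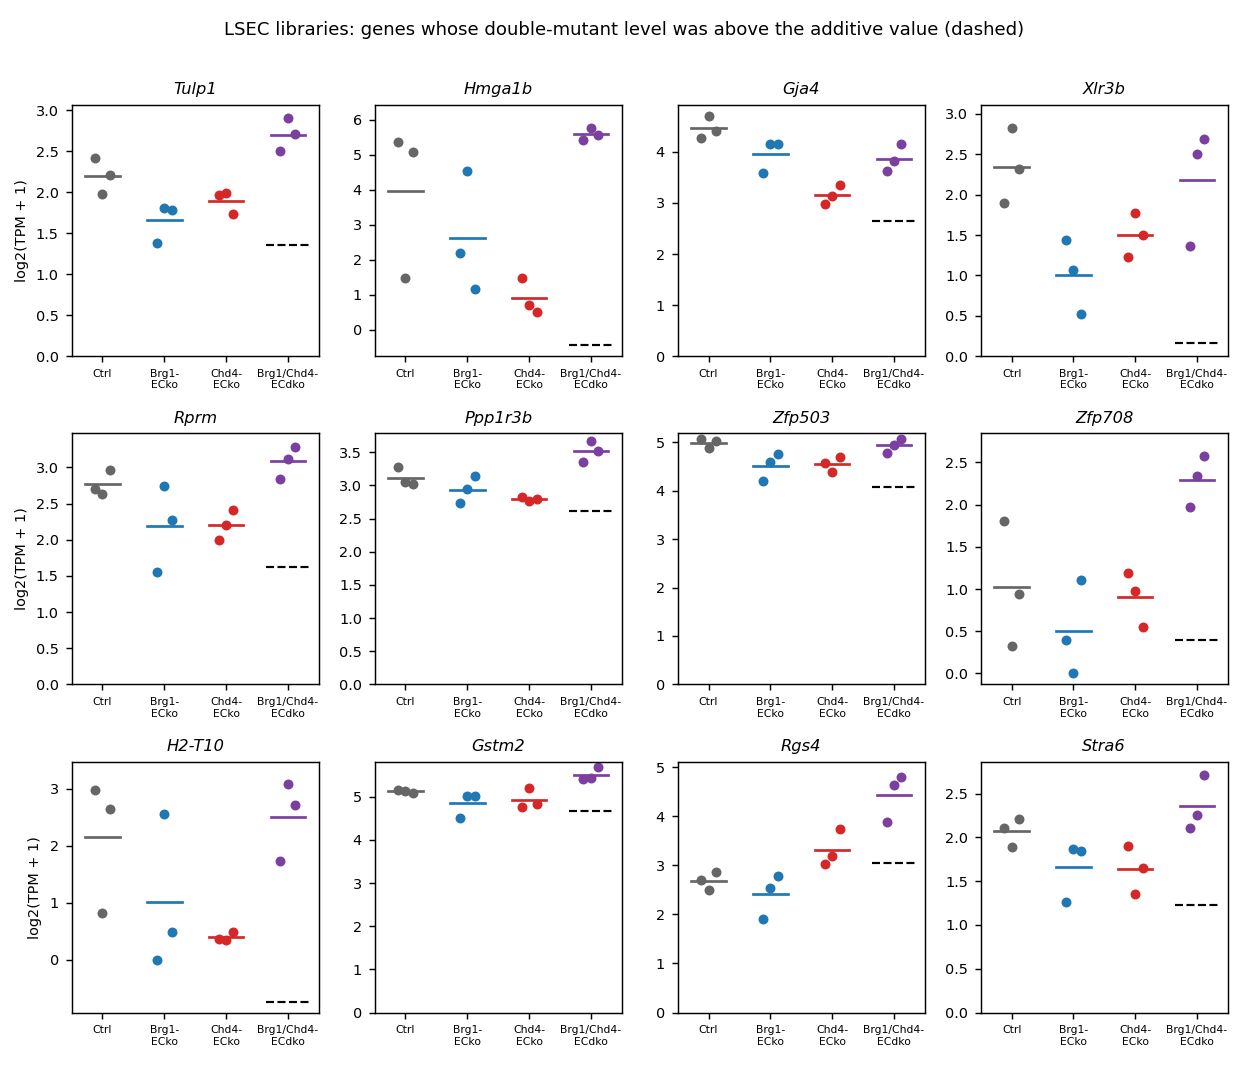
TPM of genes above additivity in each of the 12 LSEC libraries (points, log2(TPM + 1) axis) by genotype, with group means as bars and the additive level as a dashed line. The double-mutant points of *Gja4*, at 11.3 to 16.8 TPM, lie above the dashed line and below the controls, while those of *Rgs4*, at 13.8 to 27 TPM, lie above all its other points.

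The interaction was next read in the genes that respond to each loss. These were called on the effect of 1 gene averaged over the state of the other, a value that in a balanced design does not depend on the interaction. *Chd4* loss changed 42 LSEC genes (0.312% of those tested), of which 38 rose and 4 fell. All 42 had the same direction in both *Brg1* states, which a choice on the averaged effect favours. The median size of the *Chd4* effect was 1.48 on the log2 scale with *Brg1* and 1.18 without it, and the effect was smaller without *Brg1* for 28 of the 42 genes, against 47.5% of all genes tested. The interaction, signed so that a negative value is a smaller effect without *Brg1*, had a median of -0.39. The 42 include genes of blood cells. Of the 42, 6 are in the macrophage, leukocyte, erythroid or globin lists (*Car1*, *Cx3cr1*, *Hba-x*, *Hbb-bh1*, *Hbb-y* and *Ptprcap*), and all 6 had the smaller effect, with a median of -1.68. Of the other 36, 22 had it, with a median of -0.26. Leukocyte-expressed genes such as *Msr1*, *F13a1*, *Alox5* and *Lat* are still among the 36. As given further on, the macrophage, leukocyte and red cell lists also lay below additivity, and their part in the count of 28 was not tested. An unadjusted p under 0.05 was reached by 13 of the 42 genes (31%, against 4.17% of all genes), of which 12 had the smaller effect without *Brg1*, and 0 passed the adjusted test. Both tests use the same estimate of each gene's spread, so that the choice of the 42 and their interaction p-values are not independent. With these 42 genes held fixed, between 25 and 31 had the smaller effect under 21 alternatives, and the median ranged from -0.56 to -0.12. When limma weighted the libraries by their quality, it called 72 genes, of which 35 had the smaller effect, with a median of 0.02. That weighting gave *Brg1/Chd4-ECdko* replicate 2 a weight of 6.75 and *Brg1-ECko* replicate 1 a weight of 0.252, and the other 10 libraries 0.49 to 1.75.

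**Figure D3:**
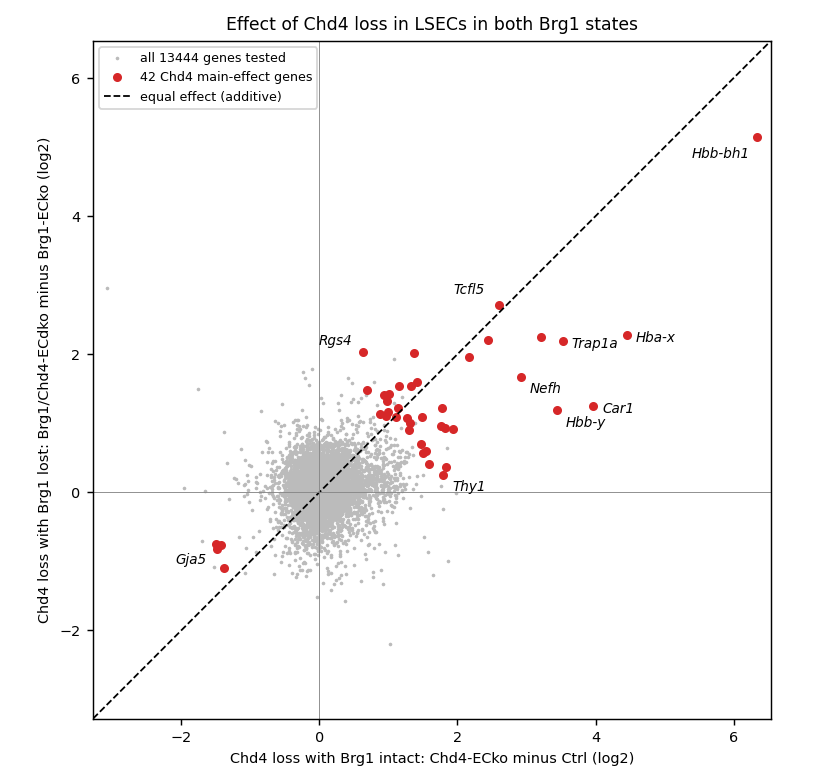
Log2 effect of *Chd4* loss with *Brg1* present (x axis, *Chd4-ECko* minus control) and with *Brg1* lost (y axis, *Brg1/Chd4-ECdko* minus *Brg1-ECko*) for the 42 genes that changed with *Chd4* loss (red) and all 13444 genes tested (grey). The dashed line marks equal effects, and 28 of the 42 genes have the smaller effect with *Brg1* lost.

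*Tcfl5* (chr2:180263529-180284556), a basic helix-loop-helix factor of male germ cells, had nearly the same effect in both states. It measured 1.69, 1.7 and 1.02 TPM in controls and 1.08, 1.31 and 1.45 TPM in *Brg1-ECko* LSECs, against 13.5, 17.8 and 11 TPM in *Chd4-ECko* LSECs and 11.5, 15 and 15.4 TPM in the double mutant. The groups with and without *Chd4* did not overlap, while libraries with and without *Brg1* overlapped within them. The effect of *Chd4* loss was 2.60 with *Brg1* and 2.71 without it, and the interaction of 0.11 had a 95% interval from -0.51 to 0.72. *Septin1*, a cytoskeletal GTPase, had *Chd4-ECko* libraries above and *Brg1-ECko* libraries below the controls, with the double mutant between them: 32.9, 34.3 and 31.5 TPM in controls, 66.9, 83.8 and 73.6 TPM in *Chd4-ECko*, 16, 17 and 19.8 TPM in *Brg1-ECko*, and the double mutant had 49.4, 53.8 and 54.8 TPM. No groups overlapped, and the double mutant stayed above the controls. The interaction was 0.38 on the log2 scale but below 0 on the linear TPM scale (-6.78 TPM), so that its direction depends on the scale.

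The embryonic globins, which primitive red cells make, were also among the 42 genes and varied widely between *Chd4-ECko* libraries. *Hbb-bh1* measured 2.67, 3.84 and 1.85 TPM in controls, 1.84, 5.4 and 2.21 TPM in *Brg1-ECko*, 102, 789 and 328 TPM in *Chd4-ECko* and 130, 135 and 146 TPM in the double mutant. The double-mutant libraries lay within the range of the *Chd4-ECko* libraries. The *Chd4* effect was 6.34 with *Brg1* and 5.15 without it, with an interaction of -1.19 and an SE of 0.74. *Hba-x* measured 11.9, 6.14 and 11.8 TPM in controls, 18.2, 13.3 and 22.8 TPM in *Brg1-ECko*, 103, 467 and 254 TPM in *Chd4-ECko* and 113, 63.1 and 101 TPM in the double mutant. Here the *Brg1-ECko* libraries were all above the controls, and the interaction was -2.17. *Hbb-y* had an interaction of -2.26 and the same order of groups.

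Other genes that rose with *Chd4* loss and ranked below additivity were *Trap1a*, a germ cell antigen (*Chd4* effects of 3.52 with *Brg1* and 2.20 without it, interaction -1.33), *F13a1*, the A chain of coagulation factor XIII (-1.02), *Cx3cr1*, the fractalkine receptor of macrophages (-1.19), and *Mmp9*, a matrix-degrading enzyme (-0.88). *Tnni3*, the cardiac inhibitory troponin, had an interaction of -0.24. Among the 4 genes that fell was *Gja5*, encoding connexin 40 of arterial endothelium, with 11, 25.9 and 17.4 TPM in controls, 3.62, 5.71 and 7.45 TPM in *Chd4-ECko*, 5.56, 6.78 and 10.3 TPM in *Brg1-ECko*, and the double mutant had 3.65, 3.29 and 5.06 TPM. Every mutant library was below every control, and its interaction of 0.75 had an unadjusted p of 0.0973. The others that fell were *Ly6a*, *Chp2* and *Gcg*.

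The sequence before the start site was compared for CG dinucleotides. In the 250 bases before the start of the canonical transcript, the 42 genes that changed with *Chd4* loss had a median of 5 CG dinucleotides, and 19% of them had at least 10. The 11 genes that changed with *Brg1* loss, described further on, also had a median of 5, and 27.3% of them had at least 10. The 13442 tested genes with an annotated start had a median of 12, and 60.8% of them had at least 10. The 12 genes first below additivity had a median of 5 CG and a median GC content of 43.2%, and the 12 first above additivity had a median of 6 CG and a GC content of 53%, against 56.4% over all genes. CG was counted once for both strands, since it reads the same on each, and these counts are a description with no test. Upstream windows of 3 genes are shown, 1 for each course above, 5′ to 3′ on the strand of the gene with CG in capitals. *Tcfl5* was additive (chr2:180284557-180284806, minus strand, 14 CG), *Itgal* ranked below additivity (chr7:126895182-126895431, plus strand, 4 CG) and *Gja4* above it (chr4:127207852-127208101, minus strand, 9 CG). All 3 windows are in GRCm39 and lie outside the annotated genes of this series, and overlap with other annotated genes was not checked.
Tcfl5: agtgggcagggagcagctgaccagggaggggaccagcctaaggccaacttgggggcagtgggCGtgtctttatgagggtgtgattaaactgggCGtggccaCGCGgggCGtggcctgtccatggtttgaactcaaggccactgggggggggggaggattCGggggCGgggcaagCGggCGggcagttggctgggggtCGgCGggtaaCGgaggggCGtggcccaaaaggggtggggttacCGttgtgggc
Itgal: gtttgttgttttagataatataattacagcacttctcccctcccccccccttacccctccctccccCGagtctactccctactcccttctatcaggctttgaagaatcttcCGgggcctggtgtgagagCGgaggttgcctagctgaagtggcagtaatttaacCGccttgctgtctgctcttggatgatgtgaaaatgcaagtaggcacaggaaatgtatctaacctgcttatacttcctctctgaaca
Gja4: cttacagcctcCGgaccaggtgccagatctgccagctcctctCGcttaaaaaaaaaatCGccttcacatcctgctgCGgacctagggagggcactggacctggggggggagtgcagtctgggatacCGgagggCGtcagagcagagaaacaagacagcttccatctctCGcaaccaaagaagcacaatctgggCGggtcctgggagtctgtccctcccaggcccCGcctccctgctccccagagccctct

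*Brg1* loss changed 11 LSEC genes (0.0818% of those tested), of which 6 rose and 5 fell. Their effects were smaller without *Chd4* for 2 of the 11, against 47% of all genes, with a median size of 1.14 with *Chd4* and 1.42 without it. Of the 11, *Prl3b1* entered the test through its *Chd4-ECko* libraries alone. Its *Brg1* effect could therefore appear only without *Chd4* (-1.87, against -0.19 with it). The larger effect without *Chd4* did not hold at an adjusted p under 0.05 alone, where 20 of 37 genes (54.1%) had the smaller effect, with a median size of 0.87 with *Chd4* and 0.78 without it, and 11 of the 37 rose. *Nkx2-3*, a homeobox factor of gut and spleen endothelium, measured 1.63, 3.22 and 2.81 TPM in controls and 1.83, 2.63 and 2.26 TPM in *Chd4-ECko* LSECs. It measured 4.13, 7.4 and 9.54 TPM in *Brg1-ECko*, and the double mutant had 9.54, 9.96 and 15.1 TPM. All libraries without *Brg1* were above all libraries with it. The effect of *Brg1* loss was 1.14 with *Chd4* and 1.93 without it, and the interaction was 0.79. *Sncg*, which encodes gamma-synuclein, had 16.9, 12 and 13.3 TPM in controls, 33.3, 31.4 and 31.4 TPM in *Chd4-ECko*, 6.45, 8.39 and 8.35 TPM in *Brg1-ECko*, and the double mutant had 9.23, 11.1 and 14.1 TPM. Its *Brg1* effect was -0.78 with *Chd4* and -1.42 without it, and its interaction was -0.64.

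*Nts*, the precursor of the peptide neurotensin, was 1 of the 2 with a smaller effect in the absence of *Chd4*, with 1.44, 1.99 and 1.02 TPM in controls, 2.07, 2.65 and 2.18 TPM in *Chd4-ECko*, 4.63, 10.3 and 8.01 TPM in *Brg1-ECko*, and the double mutant had 3.15, 5.71 and 5.22 TPM. Its *Brg1* effect was 1.76 with *Chd4* and 0.76 without it (interaction -0.999). *Chst7*, a sulfotransferase of proteoglycan chains, was nearly additive, with *Brg1* effects of -1.19 and -1.09 and an interaction of 0.10. *Thy1* and *Susd3*, a complement-control domain protein, were called for the averaged effects of both losses. The *Brg1* effect on *Thy1* was -0.31 with *Chd4*, where the *Brg1-ECko* libraries overlapped the controls, and -1.85 without it. The count of 11 moved with the libraries used and with a covariate for embryo sex: 0 were called with *Eif2s3y* as a covariate, 18 without *Brg1-ECko* replicate 1 and 6 to 7 without *Chd4-ECko* replicate 2 or 3 or any 1 double-mutant library.

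*Plaur*, *Icam1*, *Vcam1* and *Tnf*, which the study examined, had 95% intervals of the interaction that included 0. *Plaur* (chr7:24161875-24175394), the urokinase receptor that focuses plasmin on the cell surface, measured 5.65, 7.67 and 8.08 TPM in controls, 13.7, 13.9 and 15.4 TPM in *Chd4-ECko*, 6.27, 5.62 and 6.38 TPM in *Brg1-ECko*, and the double mutant had 8.23, 11.5 and 9.06 TPM. The *Chd4-ECko* libraries were above all others, and the double-mutant libraries were above every control. Its *Chd4* effect was 0.92 with *Brg1* and 0.57 without it, with an interaction of -0.36 whose 95% interval ran from -0.86 to 0.15. *Icam1*, the endothelial ligand of LFA-1, measured 38.9, 42.5 and 35.4 TPM in controls, 50.8, 55.6 and 56 TPM in *Chd4-ECko*, 33, 32 and 32.3 TPM in *Brg1-ECko*, and the double mutant had 35.5, 37.3 and 46.2 TPM. The double mutant overlapped the controls, but the *Brg1-ECko* libraries lay below them, so that the *Chd4* effect was 0.47 with *Brg1* and 0.27 without it. The interaction was -0.19, with an interval from -0.58 to 0.19.

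*Vcam1*, an adhesion molecule for lymphocytes and progenitors, had an interaction of 0.11, with 66.2, 57.4 and 68.7 TPM in controls and 53.7, 67.3 and 77.6 TPM in *Brg1/Chd4-ECdko* LSECs. *Tnf*, the inflammatory cytokine, measured 1.1, 0.638 and 1.99 TPM in controls, 2.17, 1.93 and 2.33 TPM in *Chd4-ECko*, 0.258, 0.485 and 1.03 TPM in *Brg1-ECko*, and the double mutant had 0.999, 0.87 and 1.68 TPM. Its interaction was -0.06 with an SE of 0.36, too wide at these levels to tell an additive course from a moderate departure.

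In the gene lists around these genes, 7 of 12 plasminogen genes were below additivity, with a median of -0.05 that ran from -0.14 to 0.021 over 22 alternatives, and 1 reached an unadjusted p under 0.05 (*Plat*, tissue plasminogen activator, 0.66). Of 15 endothelial adhesion molecules, 3 were below, with a median of 0.18 (0.085 without *Brg1-ECko* replicate 1, 0.083 with hepatoblast markers as a covariate, 0.10 without *Brg1/Chd4-ECdko* replicate 3 and 0.32 without *Brg1-ECko* replicate 3), and *Madcam1*, a ligand for lymphocyte homing, had 1.16. Of 24 NFkB targets and cytokines, 14 were below, with a median of -0.07 that ran from -0.19 to 0.030, and 2 reached an unadjusted p under 0.05, *Cxcl1* (-1.02) and *Il1a* (0.52). Of 22 interferon response genes, 19 were below, with a median of -0.33, and 3 reached it, *Rtp4* (-0.81), *Ifi35* (-0.68) and *Ifit2* (0.60). No member of any list passed the adjusted test, and each count of members at an unadjusted p under 0.05 stands beside 4.17% of all genes. Of the 23 lists described here, 4 kept their median within 1.5 times its value under all 22 alternatives. These were the interferon, macrophage, leukocyte and embryonic globin lists.

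Macrophage and leukocyte genes lay below additivity as lists. All 21 measured macrophage markers had an interaction below 0, where 41.8% of all genes did, with a median of -0.82, and 11 of them reached an unadjusted p under 0.05. The list had median log2 differences from controls of 0.58 in the double mutant, 0.40 in *Brg1-ECko* and 0.96 in *Chd4-ECko* LSECs. *Spi1*, the master factor of myeloid cells, measured 9.45, 7.74 and 12.2 TPM in controls, 15.4, 23.4 and 28.7 TPM in *Chd4-ECko*, 14.7, 18.9 and 17.7 TPM in *Brg1-ECko*, and the double mutant had 19.4, 15 and 19.6 TPM, with an interaction of -1.03. All 9 mutant libraries were above the controls, as for *Itgal* and *Msr1*. *Csf1r*, the receptor for macrophage growth factor, had -1.06, *Adgre1* (F4/80) -1.07, *Tyrobp*, an adaptor of activating receptors, -1.23 and the Fc receptor *Fcgr3* -1.29.

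The macrophage list summed to 1038, 1085 and 1288 TPM in controls, 1344, 2236 and 2178 TPM in *Chd4-ECko*, 1003, 1650 and 1395 TPM in *Brg1-ECko*, and the double mutant had 1879, 1199 and 1524 TPM. These genes move together with the share of macrophage RNA in a library and are not independent of each other. Of 16 leukocyte markers, 13 were below additivity, with a median of -0.57, and 7 reached an unadjusted p under 0.05, among them *Ptprc* (CD45, -0.79), *Laptm5* (-0.74) and *Vav1* (-0.74). Their sum was 335 to 433 TPM in controls, 479 to 676 in *Chd4-ECko*, 385 to 457 in *Brg1-ECko* and 522 to 558 in the double mutant. The macrophage and leukocyte markers moved with *Itgal*, *Msr1*, *Fcrls* and *Milr1*, and their part in those values was not tested. Without *Brg1-ECko* replicate 1, all 21 macrophage and 15 leukocyte markers were below additivity, with medians of -0.98 and -0.53.

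Red cell lists had medians below 0 as well, with wide ranges over the libraries. All 20 erythroid markers were below additivity, with a median of -0.67, but only *Car1* reached an unadjusted p under 0.05. The 3 embryonic globins had a median of -2.17, with 2 past that limit, and summed to 17.6 to 29.5 TPM in controls, 47.6 to 50.5 in *Brg1-ECko*, 266 to 1606 in *Chd4-ECko* and 261 to 325 in *Brg1/Chd4-ECdko* LSECs. Of the 4 adult globins, 3 were below, with a median of -0.83, which ran from -1.52 without control replicate 2 to 0.047 without control replicate 3. The erythroid markers summed to 250 to 597 TPM in controls, 575 to 853 in *Chd4-ECko*, 211 to 709 in *Brg1-ECko* and 372 to 585 in the double mutant, with overlap between controls and every mutant group. The erythroid median was -0.37 without *Brg1-ECko* replicate 1 (18 of 20 below), -1.30 without replicate 3 of that group, and -0.25 with array weights (15 of 20 below). The part of red cell RNA in the values of *Car1* and the globins was not tested.

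Hepatoblast markers were all 19 below additivity as well, with a median of -0.51 and 0 at an unadjusted p under 0.05, but this turned on 1 library. Without *Brg1-ECko* replicate 1, 3 of the 19 were below and the median was 0.15. Of 10 blood stem and progenitor genes, 7 were below, with a median of -0.32, which was -0.031 without *Brg1-ECko* replicate 1 and 0.013 with array weights. The gene of this list with an unadjusted p under 0.05 was *Mecom*, a factor of stem cells and arterial endothelium, with 14.4, 17.4 and 12.5 TPM in controls, 10, 7.94 and 8.77 TPM in *Chd4-ECko*, 5.85, 5.23 and 8.39 TPM in *Brg1-ECko*, and the double mutant had 7.42, 7.11 and 8.22 TPM. All 9 mutant libraries were below the controls, and the interaction was 0.88. Megakaryocyte markers were above additivity for 10 of 12, with a median of 0.32 that rested on single libraries, since it was 0.88 without *Brg1-ECko* replicate 1, 0.034 without replicate 2 of that group and 0.010 without *Chd4-ECko* replicate 1.

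**Figure D4:**
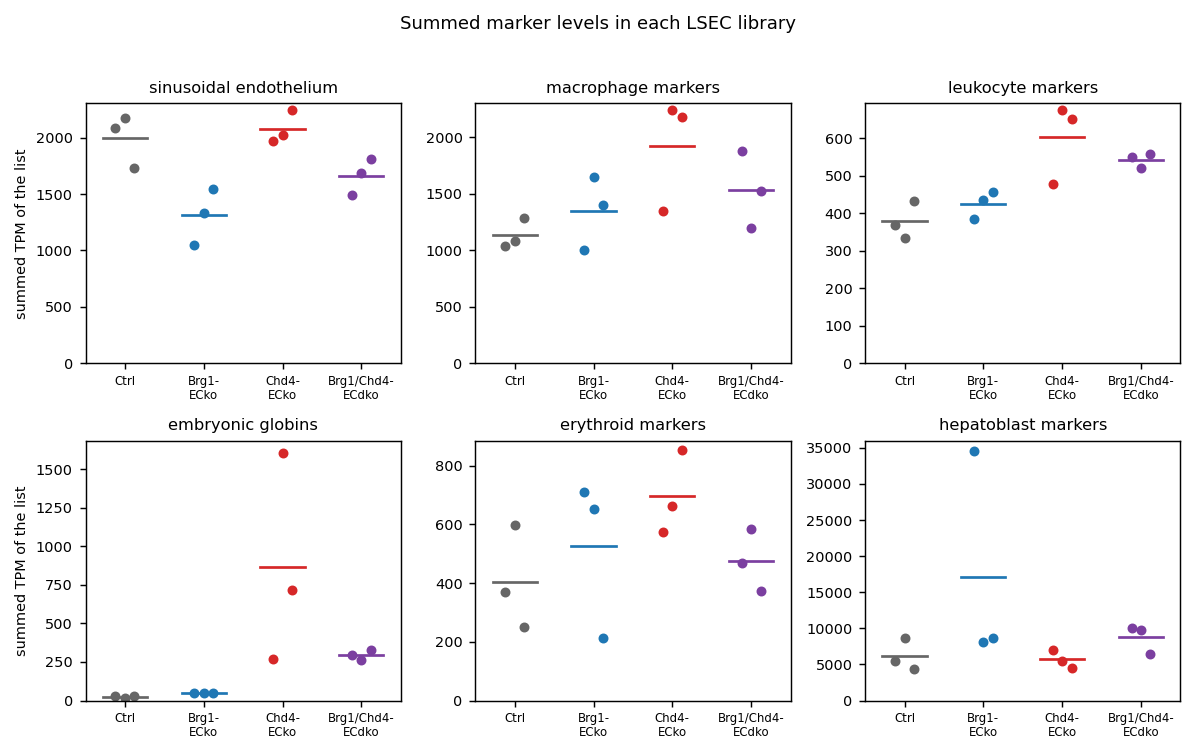
Summed TPM of marker lists of blood cells, hepatoblasts and endothelium in each of the 12 LSEC libraries by genotype (points, with group means as bars). The hepatoblast sum of 34498 TPM in *Brg1-ECko* replicate 1 lies far above the other 11, and the macrophage sum reaches its highest values, 2236 and 2178 TPM, in *Chd4-ECko* LSECs.

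Several endothelial lists had medians above additivity, with values that lists of other kinds also reached. Of 24 endothelial identity genes, 20 were above additivity, with a median of 0.28, and 5 reached an unadjusted p under 0.05, namely the VEGF receptors *Kdr* (0.56) and *Flt1* (0.59) and the transcription factors *Ets1* (0.58), *Sox7* (0.66) and *Sox17* (0.67). Of 20 Notch and arteriovenous genes, 18 were above, with a median of 0.36, and 5 reached it. Besides *Gja4* these were the Notch ligands *Dll4* (0.66) and *Jag2* (0.87), the Notch target *Hey1* (0.98) and the arterial ephrin *Efnb2* (0.85). *Dll4* measured 24.2, 31.8 and 23.6 TPM in controls, 23.1, 24.9 and 28.3 TPM in *Chd4-ECko*, 11.4, 16.4 and 16.3 TPM in *Brg1-ECko*, and the double mutant had 20.2, 24.7 and 22.9 TPM. The *Brg1-ECko* libraries were below all others, while the double mutant overlapped the controls and *Chd4-ECko*. *Efnb2* was lower than most controls in both single mutants, with 46.4, 36.4 and 48.5 TPM in *Chd4-ECko* and 30.9, 39.9 and 54.9 TPM in *Brg1-ECko* against 66.9, 61.7 and 53 TPM in controls, and 48.6, 53.2 and 59.4 TPM in *Brg1/Chd4-ECdko* LSECs.

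*Jag2* differed from *Dll4* in that its double-mutant libraries, at 5.84, 7.33 and 9.48 TPM, were above all others, with 2.79, 2.84 and 2 TPM in controls, 3.92, 4.06 and 3.82 TPM in *Chd4-ECko* and 2.15, 2.1 and 2.65 TPM in *Brg1-ECko* LSECs. Of 18 sinusoidal genes, 7 were below additivity (38.9%, near the 41.8% of all genes). Their median was 0.21, but 0.11 without *Brg1-ECko* replicate 1, 0.12 without *Brg1/Chd4-ECdko* replicate 3, 0.087 with array weights, 0.33 without *Brg1/Chd4-ECdko* replicate 1 and 0.36 without *Brg1-ECko* replicate 3, and *Oit3* (0.61) reached an unadjusted p under 0.05. Of 15 angiocrine signals, 12 were above, with a median of 0.34 (0.12 with array weights, 0.19 with hepatoblast markers as a covariate and 0.21 without *Brg1/Chd4-ECdko* replicate 3), led by *Angpt1*, the ligand of TIE2 (0.89). Of 23 basement membrane and matrix genes, 19 were above, with a median of 0.21 and 0 at an unadjusted p under 0.05. That median was 0.070 without *Chd4-ECko* replicate 2, 0.11 without *Brg1/Chd4-ECdko* replicate 3, 0.13 without control replicate 1, 0.094 with array weights and 0.34 without *Brg1-ECko* replicate 3 or *Brg1/Chd4-ECdko* replicate 1. TPM are shares of a fixed total, and the high hepatoblast sum of *Brg1-ECko* replicate 1 moved with these values. The sinusoidal genes summed to 1053 to 1546 TPM in *Brg1-ECko* LSECs and 1488 to 2244 TPM in the other groups. Without that library, 7 of the 24 endothelial identity genes were below additivity with a median of 0.10, and 4 of the 20 Notch and arteriovenous genes with a median of 0.30. With array weights these medians were 0.10 and 0.19, and the identity genes had 0.43 without *Brg1-ECko* replicate 3.

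The remaining lists had medians on both sides of that of all genes, 0.05. Of 15 NuRD subunits, 10 were above additivity, with a median of 0.10 (0.021 without *Brg1/Chd4-ECdko* replicate 3 and 0.17 without replicate 1 of that group). Of 29 BAF subunits, 22 were above, with a median of 0.21 and *Dpf1*, a neuronal subunit, at 0.54. The BAF median was 0.062 without *Chd4-ECko* replicate 2, 0.086 without *Brg1/Chd4-ECdko* replicate 3, 0.11 without control replicate 1 and 0.12 without *Brg1-ECko* replicate 2. Of 16 cell cycle genes, 10 were below, with a median of -0.06 (-0.12 without *Chd4-ECko* replicate 2 and 0.053 without *Brg1-ECko* replicate 1). Of 13 immediate-early genes, which dissociation can induce, 11 were above, with a median of 0.19 (0.057 without *Brg1-ECko* replicate 1, 0.084 without *Chd4-ECko* replicate 1, 0.32 without *Brg1/Chd4-ECdko* replicate 1 and 0.37 without *Chd4-ECko* replicate 3). Of 17 mesenchymal markers, 12 were above, with a median of 0.29 (-0.06 without *Brg1-ECko* replicate 1 and 0.52 without replicate 2 of that group) and with *Pdgfra* (0.64) and *Wt1* (0.74) at an unadjusted p under 0.05. The 4 sex-linked genes had a median of 1.54 (0.13 with array weights, 0.29 with *Eif2s3y* as a covariate and 0.37 without *Brg1/Chd4-ECdko* replicate 1), and the unequal sexes of the embryos moved with this value. *Eif2s3y* as a covariate left the count of interactions past the test at 0.

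**Figure D5:**
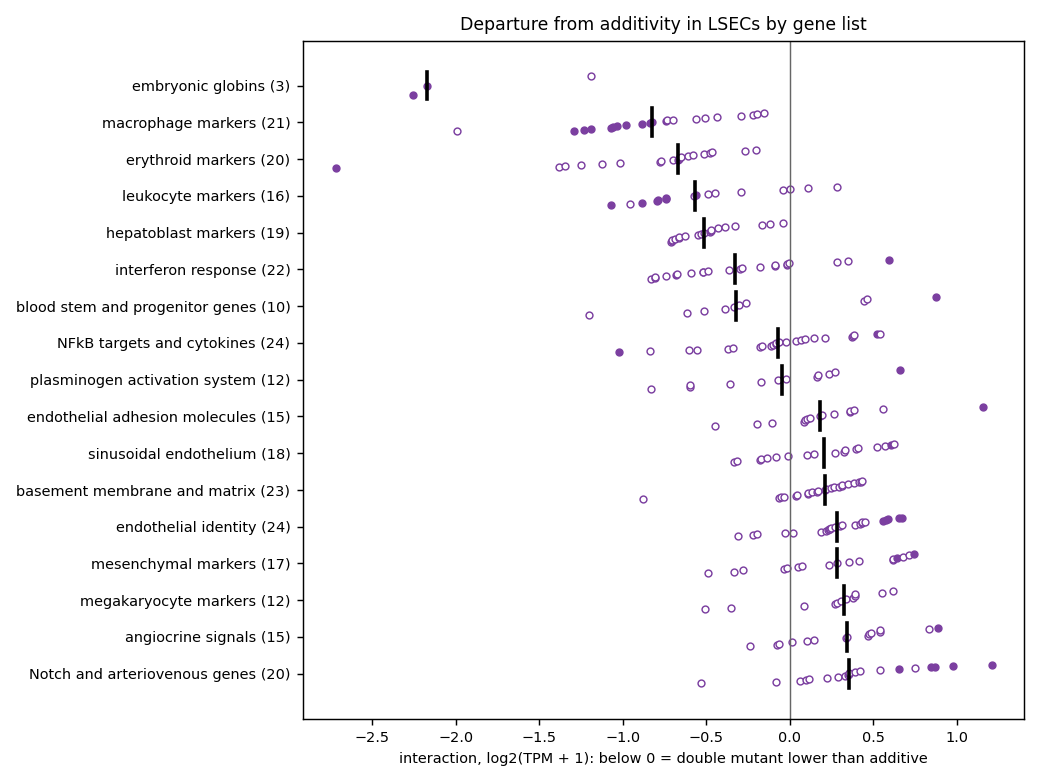
Log2 interaction of every measured member of each gene list in LSECs (1 point per gene), with the list median as a black bar. Filled points have an unadjusted p under 0.05 and open points do not. All 21 macrophage markers lie below 0, and 18 of 20 Notch and arteriovenous genes lie above it.

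The same contrast was fitted in the non-EC cells, the liver cells left after the CD146 selection. There, 934 of 12223 genes were called (7.64%), 536 above and 398 below additivity, and leaving out 1 library moved the count between 374 (without *Brg1/Chd4-ECdko* replicate 2) and 2040 (without *Chd4-ECko* replicate 1). Of the 24 genes named in LSECs, 17 were measured in non-EC cells, 14 had the same sign there (82.4%), and 2 were called. Over all 11955 genes tested in both fractions 58.1% had the same sign, and over the 432 with an unadjusted p under 0.05 in LSECs 64.1% did. The 17 were chosen on their LSEC values and the fractions may share embryos, so nothing is read from the 14. The difference of the interaction between LSECs and non-EC cells was tested directly, and 1 of 13775 genes passed (0.00726%), *Il1rl1*, which encodes the receptor for interleukin 33. None of the 24 named genes did, and the lowest adjusted p among them was 0.0539. The larger count in non-EC cells therefore does not show which genes differ between the fractions. This test treated both fractions as independent. Whether same-numbered libraries of a genotype come from 1 embryo is not given by the labels, but *Eif2s3y* was on the same side of 10 TPM in all 12 such pairs. With these pairs as a block, again 1 gene passed, *Il1rl1*. With each of the 24 libraries left out in turn, *Il1rl1* passed 16 times and lost the call 8 times, with an adjusted p from 0.00123 to 0.0913. With the replicate number alone as a block, 67 genes passed. The count past the test of the difference ranged from 0 to 1398 with 1 library left out, the highest without non-EC *Chd4-ECko* replicate 1.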

How the data were processed

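RNA of LSEC (CD146+) and non-EC liver cells of 24 samples was used, 3 for each of 4 genotypes in each fraction, grouped by the labels. The authors selected poly-A RNA, trimmed guanine repeats, mapped reads to GRCm39 (mm39) with CLC Genomics Workbench and deposited TPM for 25361 genes. TPM hold no library size, so the depth behind a value is unknown. LSEC libraries had 12746 to 13219 genes at 1 TPM or more, mitochondrial genes took 13.9% to 31.5% of their TPM, and replicates correlated at 0.962 to 0.993 across genes on the log2 scale. The 8 deposited columns of group means were not used.

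Genes that reached 1 TPM in 3 or more of the 12 LSEC libraries entered limma 3.58.1 (R 4.3.3) on log2(TPM + 1), with a mean per genotype and trended moderation. The pseudocount of 1 TPM understates changes of low genes, and a log2 interaction differs in sign from the difference on the linear TPM scale for 495 genes (3.68%), 0 of them named for their interaction. All p-values are two-sided, and adjusted ones are by the Benjamini-Hochberg method over all genes tested. The main effect of each gene was averaged over both states of the other. Non-EC libraries were fitted in the same way, and all 24 libraries in 1 model for the difference between the fractions. Where the labels' replicates do not come from separate litters or isolations, p-values measure the spread between embryos only.

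The 12 genes of smallest p in each direction were named, leaving out gene models without a symbol of their own, together with the targeted genes, genes that the study examined, and list members with an unadjusted p under 0.05. Other named genes, among them those of the main effects and *Il1rl1*, were chosen after their values were seen. The contrast and the 23 lists were chosen with earlier results of these data known. Lists were described by counts and medians without a test. Gene positions and upstream windows came from GENCODE vM39 and the GRCm39 genome. The steps were tested on simulated data. Figures were drawn with matplotlib 3.10.9 in Python 3.11.15.

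Alternatives were a pseudocount of 0.1 TPM, the square root of TPM, no filter, quantile normalization, a mean of 5 TPM or more, TPM without mitochondrial genes, moderation without a trend, a replicate block, no fold threshold, array weights, *Eif2s3y* or hepatoblast markers as a covariate, and each library left out. For the lists most of these were added after seeing the data, as were the gene sets held fixed across alternatives and the pairing of same-numbered LSEC and non-EC libraries.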

Additional observations from a re-analysis of the deposited data

Results flagged for a closer look

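The interaction of *Il1rl1*, the receptor for interleukin 33, differed between LSECs and non-EC cells by a test of the difference itself, with a log2 value of -2.16 (SE 0.33, adjusted p = 0.0281, limma over all 24 libraries). With LSEC and non-EC libraries paired by genotype and number, the SE was 0.26 and the adjusted p 0.0229. With a pseudocount of 0.1 TPM the value was -3.51 with an adjusted p of 0.0494, close to the threshold. The call was lost in 8 of the 24 fits that left out 1 library, with adjusted p-values of 0.00123 to 0.0913. The 8 were LSEC control replicates 1 and 2, LSEC *Chd4-ECko* replicate 2, LSEC *Brg1/Chd4-ECdko* replicate 2, and in non-EC cells *Brg1-ECko* replicate 3, *Chd4-ECko* replicate 2 and *Brg1/Chd4-ECdko* replicates 2 and 3. In LSECs it measured 0.427, 0.493 and 0.698 TPM in controls, 1.29, 1.53 and 1.27 TPM in *Chd4-ECko*, 1.00, 0.73 and 0.762 TPM in *Brg1-ECko*, and the double mutant had 0.309, 0.595 and 0.618 TPM, an interaction of -0.90 (SE 0.26, adjusted p = 0.995). In non-EC cells it measured 5.17, 5.13 and 5.58 TPM in controls, 2.69, 2.22 and 1.25 TPM in *Chd4-ECko*, 2.29, 2.27 and 1.49 TPM in *Brg1-ECko*, and the double mutant had 2.03, 2.55 and 2.70 TPM, an interaction of 1.26 (SE 0.27, adjusted p = 0.0142). Each loss alone left the single-mutant libraries above all controls in LSECs and below all controls in non-EC cells, and the LSEC levels are close to the pseudocount of 1 TPM.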

How the results depend on the processing

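No interaction in LSECs passed the test under any of the alternatives that kept all libraries, and no named gene changed sign. With 1 library left out the count was 0 to 3. The 3 calls came without control replicate 2 and were *Hmga1b* (7.29, adjusted p = 0.0172), *Cd1d2* (-2.51, 0.0183) and *H2-T22* (-1.72, 0.0343). Among the alternatives that kept all libraries, the smallest adjusted p was 0.0604, with array weights.

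The genes that changed with *Chd4* loss numbered 42, and 124 on the square root scale, 24 at a mean of at least 5 TPM, 137 without a fold threshold, 72 with array weights, and 37 to 59 with 1 library left out. Their median interaction of -0.39 was -0.82 at a mean of at least 5 TPM, 0.022 with array weights and -0.51 to -0.12 with 1 library left out. The genes that changed with *Brg1* loss numbered 11, and 34 on the square root scale, 5 at a mean of at least 5 TPM, 37 without a fold threshold, 26 with array weights, 22 with hepatoblast markers and 0 with *Eif2s3y* as a covariate, and 6 to 18 with 1 library left out. Their median of 0.45 was 0.12 with a pseudocount of 0.1 TPM, -0.069 without a fold threshold, -0.0045 with hepatoblast markers and 0.26 to 0.81 with 1 library left out. Of the Brg1 main effect calls in LSECs, the share that rose was 54.5%, and 26.5% on the square root scale, 29.7% without a fold threshold, 76.9% with array weights, 81.8% with hepatoblast markers as a covariate and 40% after quantile normalization, which moved the median *Brg1* effect of all genes from 0.11 to -0.0019.

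In non-EC cells the 934 calls became 2470 without a fold threshold and 374 to 2040 with 1 library left out. The difference between fractions had 1 call, and 20 with a pseudocount of 0.1 TPM, 47 at a mean of at least 5 TPM, 170 after quantile normalization and 0 to 1398 with 1 library left out. The cause of these shifts was not tested. Depth is unknown, and 3 libraries per genotype limit the precision.

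Replicate numbers do not pair the libraries by the labels. Of 18 same-numbered pairs of LSEC libraries, 13 had a correlation of deviations over 0.1, and 10 of 12 libraries correlated best with their own number. With the replicate block there were 0 calls of the interaction, 49 for *Chd4* and 13 for *Brg1* loss, 67 for the difference between fractions (1 with same-numbered LSEC and non-EC libraries as pairs) and 1178 interaction calls in non-EC cells.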
